A study of Homo sapiens with 6 samples.

Results

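The 10 genes described here mark the melanocyte lineage or make pigment: MITF, SOX10, PAX3, PMEL, TYR, TYRP1, DCT, MLANA, EDNRB and GPR143. They were chosen by symbol among the 12306 gene rows of the deposited table, and all 10 had a row. The RNA came from the cell line 92.1, which was established from a human melanoma of the uvea, the pigmented layer of the eye. Cells were grown in RPMI-1640 medium with serum and given 1 µM VS-4718 or DMSO vehicle for 2 h, with 3 libraries in each group. VS-4718 blocks focal adhesion kinase (FAK), a tyrosine kinase that signals from integrins. The line stands for 1 tumour, and nothing in the labels says whether a group's 3 libraries had cultures of their own; p-values then measure only the spread between the libraries, possibly a technical one.

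Melanocytes arise from the neural crest, an embryonic population of migrating cells. SOX10 and PAX3 are transcription factors of the crest that switch on MITF, the master regulator of melanocytes. MITF in turn binds E-box sequences in front of the pigment genes. Melanin is made in the melanosome, an organelle related to the lysosome, on a scaffold of PMEL fibrils and by the enzymes TYR, TYRP1 and DCT.

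The binding sequence of MITF is the reason for showing the promoters of the 3 enzyme genes, which are paralogs whose rows differ widely in the table. A 6-base E-box of the kind in the classical M-box, CATGTG, was searched on both strands in windows of 300 bases, 250 before and 50 after a gene's start, from RefSeq on GRCh38.p14. Of the 10 genes, 8 had such a window; PMEL and SOX10 are named only. The 250 bases before the start are printed 5′ to 3′ on the strand of the gene, with CATGTG or its reverse complement in capitals. The TYR stretch is chr11:89177625-89177874 on the plus strand, that of TYRP1 is chr9:12693135-12693384 on the plus strand, and that of DCT is chr13:94479683-94479932 on the minus strand.
TYR: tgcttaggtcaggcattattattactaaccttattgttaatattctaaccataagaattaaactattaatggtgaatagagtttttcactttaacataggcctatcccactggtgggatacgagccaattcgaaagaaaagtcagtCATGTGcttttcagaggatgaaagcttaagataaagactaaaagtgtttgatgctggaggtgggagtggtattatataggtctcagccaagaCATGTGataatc
TYRP1: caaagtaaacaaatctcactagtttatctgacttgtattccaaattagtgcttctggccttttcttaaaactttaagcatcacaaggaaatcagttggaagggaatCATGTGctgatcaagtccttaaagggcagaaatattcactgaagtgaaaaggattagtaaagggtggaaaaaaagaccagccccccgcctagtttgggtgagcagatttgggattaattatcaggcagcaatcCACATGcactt
DCT: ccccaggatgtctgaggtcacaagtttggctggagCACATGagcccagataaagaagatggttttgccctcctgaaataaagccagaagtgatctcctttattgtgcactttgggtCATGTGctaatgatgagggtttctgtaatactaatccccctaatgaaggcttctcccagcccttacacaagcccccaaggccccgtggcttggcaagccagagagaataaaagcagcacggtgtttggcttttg

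Each of the 3 stretches holds the E-box more than once. In TYR it begins 104 and 12 bases before the start, in TYRP1 144 and 11 bases before it, and in DCT 215 and 134 bases before it. EDNRB and GPR143 held it too, so that 5 of the 12 windows of these 8 genes had a match, each of another gene, beside 11.1% of all 35116 windows. A longer form of 9 bases, TCATGTGCT, was spelled out after these matches had been seen. It lies, in either direction, in 1 window each of TYR, TYRP1, DCT and GPR143, or 4 of the 12, and in 0.22% of all windows. The windows of MLANA, PAX3 and MITF did not hold CATGTG, nor did the second window of EDNRB or a further DCT window whose start lies 69724 bases upstream.

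The other motifs searched on both strands, overlaps allowed, were the E-box CACGTG (7.26% of all windows), the SOX motifs ACAAAG (16.1%) and ACAATG (10.8%), the paired box core GTCACGC (2.52%) and TATAAA (11.5%). MITF has 3 windows at separate starts: the first held ACAATG, the second ACAAAG and the third, at position 69936592 of chromosome 3, held TATAAA at 2 places in reverse. TYRP1 held TATAAA after its start, and no member window held CACGTG or GTCACGC. A match is only a match of letters, and no binding was measured here.

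The deposited values are on a log2 scale and are called TPM-like here, because the libraries have nearly the same total. Scaling for transcript length was taken from kallisto, the tool the submitters name, whose TPM is per length; the values themselves do not show it, and every order or fold between genes rests on it. Such values keep no read total, and the depth of the libraries is therefore unknown. Put back on the linear scale, the libraries sum to between 836527 and 840714. Rows with no human match, mostly named in mouse style, hold 43.5% to 44.7% of that sum, although line and build are human in the labels. GAPDH, a glycolytic enzyme that every cell uses, has only 0.604 TPM-like units, beside 1692 for ALDOA, which acts earlier in glycolysis. A row, low or high, is therefore described as the level of that row. Whether it gives the amount of the transcript in the cell was not tested. Ranks of rows, and orders and folds between genes, share this limit.

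The levels of the 10 genes spanned a 34671-fold range and are described in a high, a middle and a low group. The groups were set by bounds on the level, not by gaps. TYRP1 was 7.97-fold above SOX10, within the high group, and SOX10 4.75-fold above EDNRB. The widest step was 15.3-fold, from PAX3 to DCT. The high group was PMEL, TYRP1 and SOX10, each above 100 TPM-like units. The middle group was EDNRB, MITF, GPR143 and PAX3, between 10 and 100. DCT, MLANA and TYR lay below 2. In the order of levels, EDNRB overlapped MITF, MITF overlapped GPR143, and MLANA overlapped TYR over the 6 libraries, while every other neighbouring pair was separate.

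**Figure D1:**
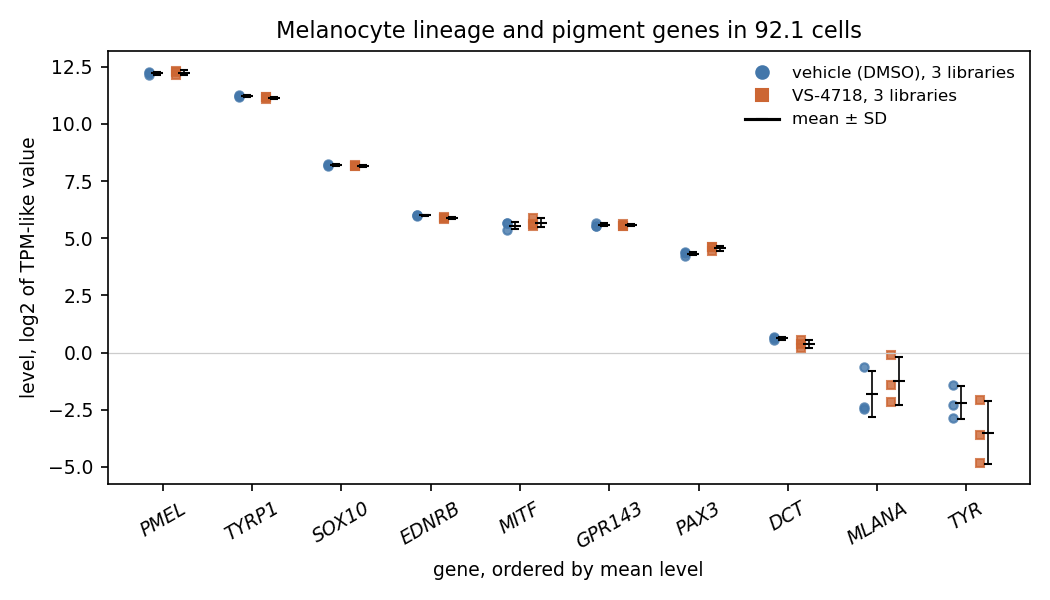
Level of each gene on the y axis (log2 of the TPM-like value) in 3 vehicle libraries (blue circles) and 3 VS-4718 libraries (orange squares), with the mean and SD in black, genes ordered by level on the x axis. PMEL, at 12.13 to 12.31 in the 6 libraries, and TYR, at -4.85 to -1.43, are the ends of the range.

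MITF, the lineage's master regulator, stood at 5.64, 5.36 and 5.66 log2 units in vehicle libraries 1, 2 and 3 and at 5.51, 5.62 and 5.89 in VS-4718 libraries 1, 2 and 3. Vehicle library 2 was the lowest and VS-4718 library 3 the highest, and the groups overlapped. The means were 5.55 ± 0.16 (SD, n = 3) and 5.67 ± 0.20, or 49.0 TPM-like units over all libraries, and 81.4% of the table's rows were lower. MITF was the most variable of the 7 tested members: its SD within groups was 0.18, above that of 81.8% of the 500 tested rows nearest to it in level. The difference was 0.12 log2 units (limma, SE 0.13, adjusted p = 0.78). Its size rested on single libraries, at 0.01 without VS-4718 replicate 3 and 0.03 without vehicle replicate 2. GENCODE 29 lists 15 transcript starts for MITF; the table has a single row for the gene, in which the melanocyte isoform cannot be read apart from any others.

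SOX10, an HMG-box factor that activates MITF and pigment genes, was far higher than MITF, with 290.6 TPM-like units. Its values were 8.24, 8.16 and 8.19 in vehicle and 8.16, 8.21 and 8.14 with VS-4718. All 6 libraries lay within a narrow band, and the groups overlapped. The SD within groups was 0.039, below the median of 0.071 among the 500 rows nearest in level. The difference was -0.03 (limma, SE 0.04, adjusted p = 0.86), and its sign turned with median scaling.

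PAX3, a paired-box factor upstream of MITF, was the lowest of the 3 transcription factors at 21.7 TPM-like units. It stood at 4.34, 4.24 and 4.40 in vehicle and at 4.62, 4.43 and 4.61 with VS-4718. Every treated library was above every vehicle library, but the gap between the groups was only 0.02. The means of 4.33 ± 0.08 and 4.55 ± 0.11 (SD, n = 3) differ by 0.22 log2 units, a ratio of geometric means 16.8% above 1. The 95% interval of the difference was 0.01 to 0.44. With an unadjusted limma p of 0.042 it was the 768th smallest of 9229, and its adjusted p was 0.49.

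EDNRB, the endothelin B receptor through which endothelins act on melanoblasts, stood at 5.98, 5.99 and 6.01 in vehicle and at 5.92, 5.82 and 5.89 with VS-4718. The vehicle libraries were nearly the same and all 3 treated libraries lay below them, by a gap of 0.06. The means were 5.99 ± 0.01 (SD, n = 3) and 5.88 ± 0.05, a difference of -0.12 (limma, SE 0.06, 95% interval -0.25 to 0.02). The adjusted p was 0.56. Its SD within groups, 0.038, was above that of only 4% of the 500 rows nearest in level, and limma's SE draws it towards the common spread.

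GPR143, a receptor of the melanosome membrane whose loss causes ocular albinism, stood at 5.53, 5.66 and 5.56 in vehicle and at 5.62, 5.54 and 5.54 with VS-4718. The ranges overlapped almost wholly. The means differed by -0.02 (limma, SE 0.06, adjusted p = 0.95), and this sign turned without vehicle replicate 2, with median scaling and with quality weights.

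The 3 enzymes of melanin synthesis did not have like levels. TYRP1, which works on late intermediates of the brown-black pigment and stabilises tyrosinase, ranked 49 of 12306 rows, with 2317 TPM-like units. Its row was 16763-fold above that of TYR, the rate-limiting tyrosinase, and 1632-fold above that of DCT, the dopachrome tautomerase. These are the paralogs whose promoter stretches are printed above, and all 3 stretches hold CATGTG. Whether the motif bears on these levels was not tested. All of the difference is between rows, whose limit is given above.

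TYRP1 stood at 11.27, 11.21 and 11.16 in vehicle and at 11.16, 11.09 and 11.18 with VS-4718. VS-4718 library 2 was the lowest and vehicle library 1 the highest, and the groups overlapped. The difference was -0.07 (limma, SE 0.04, adjusted p = 0.61).

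DCT stood at 0.64, 0.68 and 0.56 in vehicle and at 0.57, 0.22 and 0.37 with VS-4718. VS-4718 library 1 lay just above vehicle library 3, so the groups overlapped, with means of 0.63 ± 0.06 and 0.39 ± 0.17 (SD, n = 3). TYR was at -2.87, -2.28 and -1.43 in vehicle and at -2.09, -3.60 and -4.85 with VS-4718. The lowest values were in VS-4718 libraries 2 and 3, while VS-4718 library 1 lay within the vehicle range. The means of TYR, -2.20 ± 0.72 and -3.51 ± 1.38, differ by -1.32. With a library left out this ran from -2.03 without VS-4718 replicate 1 to -0.65 without VS-4718 replicate 3. On the linear scale all 6 TYR values lie between 0.0347 and 0.37 TPM-like units.

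PMEL, the protein of the melanosome's fibrils, was the highest of the 10 genes and ranked 17 of 12306. It made up 0.573% of the summed values of a library. Its values were 12.28, 12.15 and 12.21 in vehicle and 12.31, 12.13 and 12.28 with VS-4718. Library 2 was the lowest in both groups, and the groups overlapped. The difference was 0.03 (limma, SE 0.055, adjusted p = 0.89), and its sign turned without vehicle replicate 2 or VS-4718 replicate 1.

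MLANA, the Melan-A protein that assists PMEL in early melanosomes and is a classical melanoma antigen, was 13815-fold below PMEL. It stood at -2.45, -0.65 and -2.36 in vehicle and at -0.12, -2.17 and -1.41 with VS-4718. Vehicle library 2 and VS-4718 library 1 were high and the groups overlapped. The means were -1.82 ± 1.02 and -1.24 ± 1.04 (SD, n = 3). Their difference of 0.58 ran from 0.03 without VS-4718 replicate 1 to 1.17 without vehicle replicate 2, and was 1.05 without VS-4718 replicate 2.

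**Figure D2:**
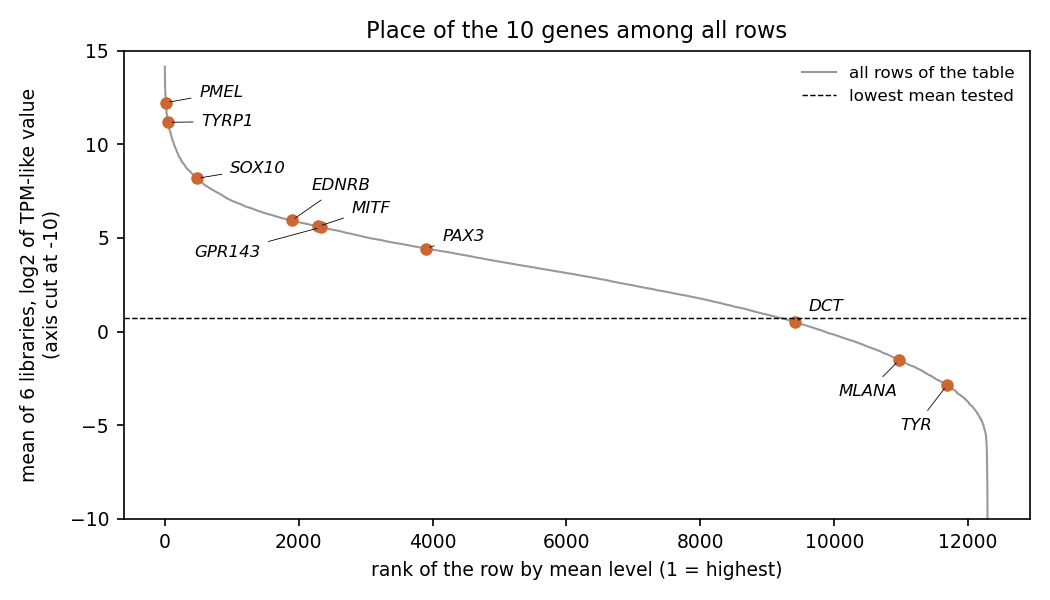
Mean level of every row (grey line, log2 of the TPM-like value, lower end of the axis cut) against its rank (x axis, 1 = highest), with the 10 genes as orange points and the lowest tested mean as a dashed line. PMEL ranks 17 and TYRP1 49, whereas DCT, MLANA and TYR lie below the dashed line at 0.70.

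The comparison of VS-4718 with vehicle asked whether FAK inhibition for 2 h was accompanied by a change in the lineage genes. None of the 10 members passed the threshold of 0.05 on the adjusted p, in a limma fit over the 9229 rows with a mean above the lowest 25%, of which 12 passed, or 0.13%. DCT, MLANA and TYR were below that filter and so were not tested there; in the fit with no filter their adjusted p values were 0.75, 0.83 and 0.67. Of the 7 tested members 3 had a higher treated mean and 4 a lower one, with a median log2 fold change of -0.02, beside -0.03 and 58.2% lower over all tested rows. Only PAX3 had an unadjusted p under 0.05, beside 9.76% of tested rows (3.02% higher and 6.74% lower). PAX3 and EDNRB were the 2 members whose groups did not overlap, beside 16.4% of tested rows (5.15% higher and 11.2% lower).

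**Figure D3:**
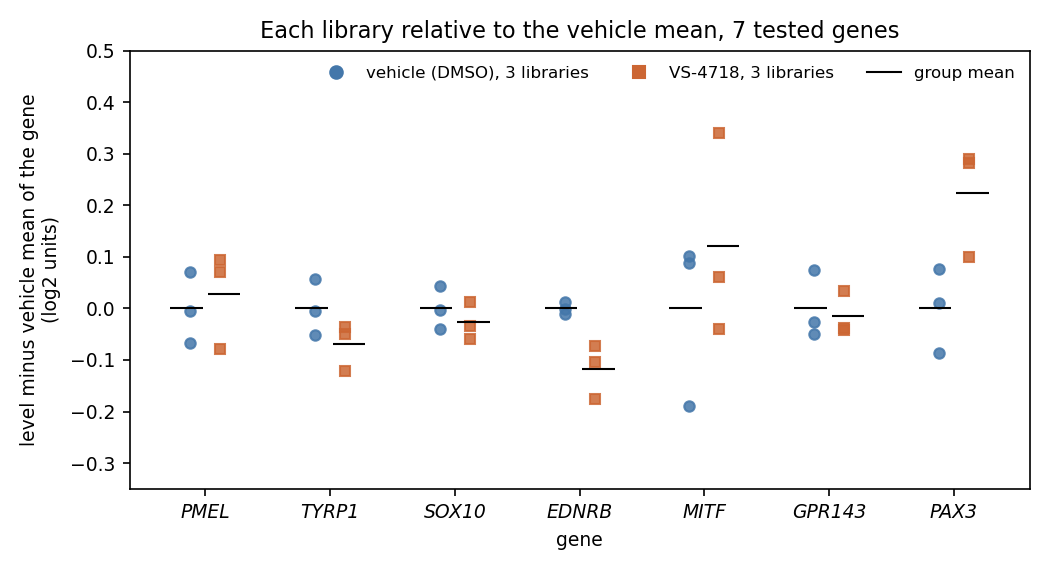
Level of each library minus the vehicle mean of its gene (y axis, log2 units) for the 7 tested genes (x axis), with vehicle as blue circles, VS-4718 as orange squares and group means as black lines. Only PAX3 and EDNRB have groups that do not overlap, with gaps of 0.02 and 0.06.

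The intervals show what sizes of change the data leave possible. For PMEL the 95% interval ran from -6.92% to 11.7% of the vehicle level, for SOX10 from -8.56% to 5.42% and for TYRP1 from -10.7% to 1.70%. For EDNRB it ran from -16.0% to 1.16% and for GPR143 from -11.0% to 10.0%. The widest were those of MITF, from -11.6% to 33.7%, and PAX3, from 0.782% to 35.4%. A p above the threshold does not show that the levels were the same. In bulk RNA, fewer cells with a transcript and less of it per cell cannot be told apart.

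**Figure D4:**
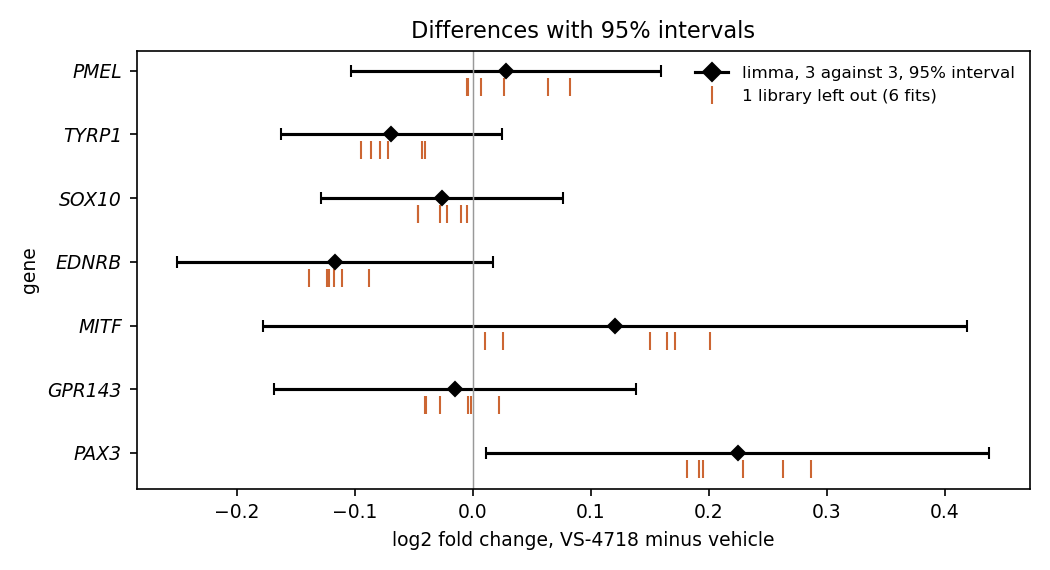
Log2 fold change, VS-4718 minus vehicle (x axis), of the 7 tested genes (y axis) as black diamonds with 95% intervals from limma; orange ticks are the 6 fits that leave out 1 library each. The interval of PAX3 alone does not reach 0 (0.01 to 0.44), and its ticks run from 0.18 to 0.29.

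Among themselves the members had correlations of both signs over the 6 libraries, in which differences between the groups are included. Pearson's r between pairs of tested members ran from -0.83 for MITF and GPR143 to 0.72 for TYRP1 and EDNRB. MITF had an r of -0.05 with SOX10, 0.57 with PAX3, 0.44 with PMEL and -0.08 with TYRP1. These are descriptions over 6 libraries that all genes share. The tested row most like each member, among rows with a current human symbol, was MAP3K2 for MITF (r = 0.98), NIPA2 for SOX10 (0.98), SH3BGRL3 for PAX3 (0.99) and FYTTD1 for PMEL (0.99). For TYRP1 it was SMG5 (0.99), for EDNRB SH3YL1 (0.998) and for GPR143 RTL8A (0.96). Each is the highest r among all tested rows with a human symbol, and none of these rows passed the limma test. A maximum over so many rows and only 6 libraries is high by selection, so it does not show a link between the genes.

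The surroundings of the lineage genes were read from 8 lists of 183 genes, of which 131 had a row and 107 were tested; none passed. Other transcription factors of the neural crest and melanocytes had 7 of 16 tested genes higher and 9 lower, with a median of -0.10, or -0.015 without VS-4718 replicate 3. In this list 5 genes had an unadjusted limma p under 0.05, all lower, beside 6.74% of tested rows. They are named after their values were seen: POU3F2 (-0.69), TWIST1 (-0.34), ETS1 (-0.19), TFAP2A (-0.24) and ID3 (-0.21), with adjusted p of 0.35 or more. ETS1, which promotes the crest and its derivatives, went from 7.35 ± 0.07 to 7.16 ± 0.06 (SD, n = 3), and ID3, an inhibitor of bHLH factors, from 6.97 ± 0.10 to 6.76 ± 0.08. ID2 of the same family stood at 7.32 ± 0.05 and 7.36 ± 0.07, and USF1, another E-box factor, at 6.60 ± 0.21 and 6.73 ± 0.34.

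Receptors and ligands of melanocytes had 3 of 9 tested genes higher and 6 lower, with a median of -0.07. KIT, the receptor for stem cell factor, stood at 6.02 ± 0.03 and 6.12 ± 0.12, and MET, the receptor for hepatocyte growth factor, at 6.79 ± 0.19 and 6.75 ± 0.07. The row KITL, which is the ligand of KIT, stood at 3.94 ± 0.47 and 3.69 ± 0.33. GPR161, an orphan receptor of the cilium, had a difference of -0.31 (limma, SE 0.09, adjusted p = 0.36), and its groups did not overlap.

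Genes listed for melanosome function were spread on both sides of 0. Ion, proton and metal transporters had 8 of 16 higher and a median of 0.0019. They ran from -0.26 for CTNS to 0.92 for MFSD12, both named after their values were seen. The lowest adjusted p in this list was 0.51 (limma). OSTM1, a partner of the chloride transporter CLCN7, stood at 6.93 ± 0.03 and 6.86 ± 0.07, and ATP6AP1, an accessory protein of the proton pump, at 6.97 ± 0.10 and 7.04 ± 0.14. ATP6V1B2, a subunit of that pump, had a difference of 0.03. SLC7A11, a cystine transporter kept in the same list, had one of -0.0044. Of the genes for melanosome building and transport 10 of 27 were higher and 17 lower, with a median of -0.02. AP3D1, a subunit of the adaptor that sorts cargo to melanosomes, stood at 7.07 ± 0.07 in both groups (SD 0.06 with VS-4718). HPS5, a Hermansky-Pudlak syndrome protein, had a difference of -0.06, BACE2, a protease that processes PMEL, one of -0.02, and BLOC1S1 one of 0.21 (limma, SE 0.09, adjusted p = 0.54).

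Genes that MITF is known to activate outside pigment synthesis had 7 of 21 higher and 14 lower, with a median of -0.07, or -0.024 without VS-4718 replicate 2. In 7 of them the groups did not overlap, all with lower treated values, beside 11.2% of all tested rows. Of the 21, 3 had an unadjusted limma p under 0.05, all lower, beside 6.74% of tested rows. Groups also did not overlap in 5 of 16 transcription factors, all lower, and in 4 of 9 receptors and ligands, 3 of them lower. Among genes of the uveal melanoma classes this held for 4 of 12, with 3 higher and 1 lower. CDK4 and CDK2, kinases of the cell cycle, stood at 9.01 ± 0.06 and 9.02 ± 0.05 and at 8.58 ± 0.02 and 8.52 ± 0.03. ASAH1, a lysosomal ceramidase, had a difference of 0.04. CAPN3, a calpain that is also in the SOX10 list, had one of -0.11. CDK2 lies next to PMEL, and the spans of the pair, introns included, overlap by 6016 bases on opposite strands. Whether this bears on either row was not tested, and no source used here says whether the libraries kept strand.

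Targets of SOX10 outside pigment synthesis had 4 of 9 higher and 5 lower, with a median of -0.04. MBP, known as a myelin protein of glia, had 218.7 TPM-like units and a difference of 0.08 (SE 0.06). CNP, another myelin gene, had a difference of 0.02. Of 22 markers of melanoma dedifferentiation 11 had a row and 5 were tested. Of the 5 tested genes 1 was higher and 4 were lower, with a median of -0.10, beside 58.2% lower over all tested rows. VIM, an intermediate filament of mesenchymal and melanocytic cells, was high at 10.84 ± 0.01 and 10.87 ± 0.01. SERPINE2, FN1 and TGFBR2 had differences of -0.10, -0.10 and -0.08. The other tested gene of that list, JUN, an AP-1 factor named after its value was seen, had -1.45 (limma, adjusted p = 0.072). Genes that distinguish classes of uveal melanoma had 7 of 12 higher and 5 lower, with a median of 0.02. EIF1B stood at 8.46 ± 0.12 and 8.41 ± 0.16, BAP1, a tumour suppressor of this cancer, at 7.04 ± 0.05 and 7.10 ± 0.02, and SF3B1, a splicing factor, at 6.98 ± 0.03 and 6.97 ± 0.07.

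**Figure D5:**
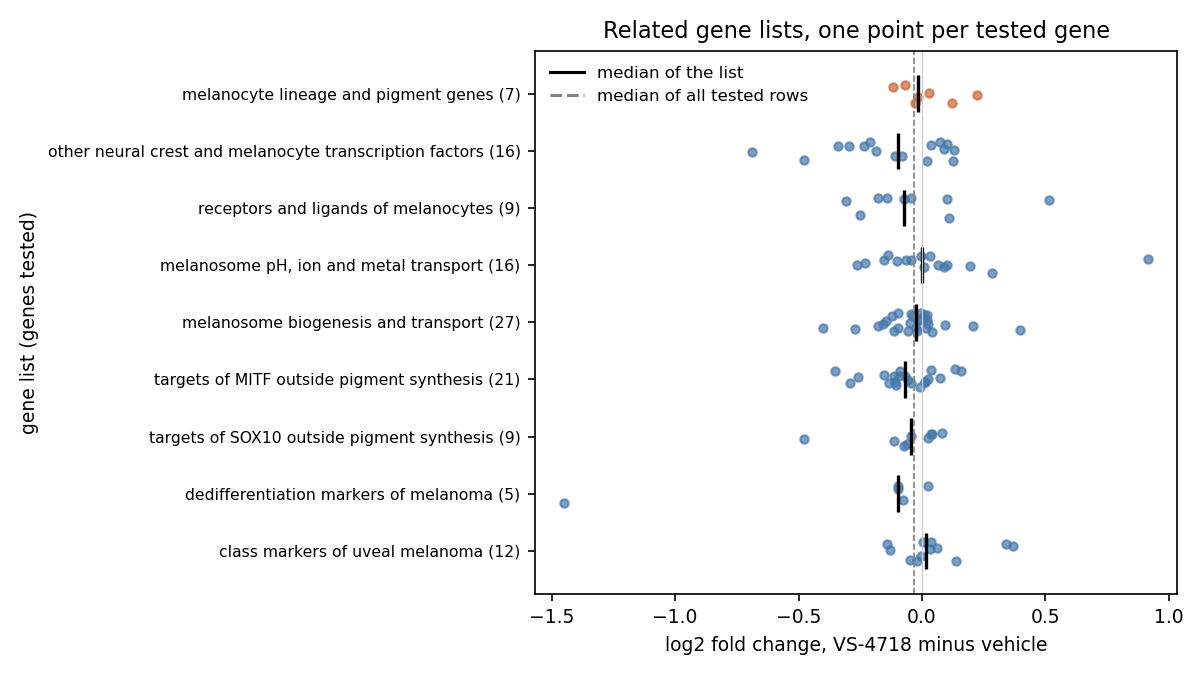
Log2 fold change, VS-4718 minus vehicle (x axis), of each tested gene in the 10-gene set (orange, 7 tested) and in 8 related lists (blue, y axis, number tested in brackets), with list medians as black bars and the median of all tested rows, -0.03, as a dashed line. The list medians lie between -0.10 and 0.02, and no gene shown passed the test over all rows.

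Markers of other cell types were summed on the TPM-like scale. Fibroblast markers (6 of 12 with a row) summed to between 1.20 and 2.45 units in vehicle and 2.17 and 2.56 with VS-4718, and immune markers (3 of 14) to at most 0.375 and 0.53. Epithelial markers (3 of 12) summed to 7.92 to 9.47 and 5.91 to 7.71, and endothelial markers (3 of 11) to 21.9 to 26.6 and 23.9 to 28.8. Most of the epithelial sum was ESRP1, at 7.28 units, the only tested gene of that list. It had a lower treated mean and did not pass. Most of the endothelial sum was EGFL7, at 18.9 units. Markers of Schwann cells, also derived from the crest, had 6 of 10 with a row and summed to 253.2 to 263.2 and 250.5 to 274.5, of which MBP made up most. Of the retinal pigment epithelium list 4 of 12 had a row, PMEL, MITF, TYR and RDH5, of which RDH5 alone is no pigment gene of melanocytes and had 0.591 units. Of the melanocyte markers, SOX10, PMEL and TYRP1 were high in every library of this labelled melanoma line, while MLANA and TYR stayed below 1 TPM-like unit in every library.

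In GENCODE 29 on GRCh38 all 10 genes are protein coding, and the values are per gene, with no particular exon. MITF lies on chromosome 3 from 69739435 to 69968337, SOX10 on chromosome 22 from 37970686 to 37987422 and PAX3 on chromosome 2 from 222199888 to 222298996. PMEL lies on chromosome 12 from 55954105 to 55973317, TYR on chromosome 11 from 89177452 to 89295759, and TYRP1 and MLANA on chromosome 9 from 12685439 to 12710290 and from 5890802 to 5910606. DCT and EDNRB lie on chromosome 13 from 94436808 to 94479682 and from 77895481 to 77975529, and GPR143 on chromosome X from 9725346 to 9786297. On the opposite strand SOX10 is covered by POLR2F over its 16737 bases, and GPR143 shares 15692 bases with TBL1X. These are overlaps of whole gene spans, introns included, and whether they bear on a row was not tested.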

How the data were processed

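RNA of 92.1 cells was sequenced from 3 vehicle and 3 VS-4718 libraries. The submitters' processing notes name kallisto and GRCh38; no source used here gives the index, annotation, strand or filters. The authors deposited log2 values for each gene symbol; their TPM-like scale was inferred from the column sums. Of 12306 rows, 9641 matched a human gene by symbol (9351) or synonym (290).

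The test was limma 3.58.1 (R 4.3.3, limma-trend, group as the only term, two-sided, Benjamini-Hochberg over 9229 rows with a mean above 0.70, the lowest 25% left out, threshold 0.05). An exact permutation of 3 against 3 cannot go below 0.1, so none was used. The script was checked on simulated data. The members and lists were chosen with earlier results of these data known. Named genes were the 10 members, the 4 highest rows of each list and, per member, the most correlated row; others are said to be chosen afterwards. Of the genes so selected, 1 is not reported here. List genes without a matching row were not analysed here. Alternatives were each library left out, a replicate block, median scaling, no and stricter filters (50%), no trend, quality weights, robust variances, a pseudocount of 1 and human names only. The promoter windows are RefSeq's; 30 of the last 50 bases of each printed gene's window, in 1 run, occur in a GENCODE 29 transcript of that gene. Figures were drawn with matplotlib 3.10.9.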

Additional observations from a re-analysis of the deposited data

How the results depend on the processing

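None of the 7 tested members was called by limma in any of the 15 alternatives, with 0 or 1 of them at an unadjusted p under 0.05 and a lowest adjusted p of 0.44 to 0.66. MITF, PAX3, TYRP1 and EDNRB kept their sign throughout, PAX3 between 0.18 and 0.29 and EDNRB between -0.14 and -0.08. Signs near 0 turned for SOX10 with median scaling (0.0073), for GPR143 with median scaling (0.018) and quality weights (0.0021), and with a library left out for PMEL (-0.0053 to 0.082) and GPR143 (-0.040 to 0.022). Of the list medians, that of the 7 tested members was 0.018 with median scaling and 0.0021 with quality weights, and those for transporters (-0.028 to 0.036), melanosome building (-0.057 to 0.011), SOX10 targets (-0.086 to 0.031) and tumour classes (-0.017 to 0.052) crossed 0; the other 4 stayed below 0, among them those of transcription factors (-0.14 to -0.015, the last without VS-4718 replicate 3) and of MITF targets (-0.10 to -0.024, the last without VS-4718 replicate 2). The count of 12 called rows was 0 with the replicate block (793 at an unadjusted limma p under 0.05) and 0 without the trend (910). It ran from 0 to 7 with a library left out: 0 when vehicle replicate 1 (758), vehicle replicate 3 (761), VS-4718 replicate 2 (710) or VS-4718 replicate 3 (987) was absent, 1 without VS-4718 replicate 1 and 7 without vehicle replicate 2. The block and the smaller fits have fewer degrees of freedom; its part in the lost calls was not tested. Residuals of libraries with the same number correlated at 0.13, 0.05 and 0.03 across rows. For VS-4718 replicates 1 and 2 the vehicle library of the same number had the highest value. VS-4718 replicate 3 correlated most with vehicle replicate 2 (0.049 against 0.032). The labels do not say that the numbers mark pairs, so the block was kept as an alternative. TPM-like values keep no depth, so no counting error can be given for the low rows.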
